A study of Mus musculus with 14 samples.

Results

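The mitochondrial genome of the mouse carries 37 genes, and all 37 were listed among the 56941 genes of the count table made from aortic valve leaflets of 14 mice. They were taken by position, as every gene that GENCODE vM39 places on the mitochondrial chromosome, and their symbols begin with mt-. By class they were 2 ribosomal RNA (rRNA) genes, 22 transfer RNA (tRNA) genes and 13 protein-coding genes, of which 28 are annotated as heavy-strand and 9 as light-strand genes (8 tRNAs and mt-Nd6). Of the 37, 23 reached a mean of 10 counts per library and were tested, namely both rRNAs, all 13 protein-coding genes and 8 tRNAs. The other 14, all tRNAs, fell below that minimum.

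All mice were C57BL/6J wild-type males (C57BL/6 in the sample labels) on the Breslow Western diet, 8 weeks old at the start. The 4 Ctrl mice were untreated. The 4 AngII mice received angiotensin II from an osmotic minipump at 1000 ng/kg/min for 28 days, the 2 LY mice received LY272015, which blocks the serotonin receptor HTR2B, at 3 mg/kg by intraperitoneal injection, and the 4 AngII+LY mice received both. The series description gives 2 injections a week where the sample labels give every other day, it states that the pumps of all AngII and AngII+LY mice were taken out 48 hours before collection where the methods state this of a subset, and the labels of 4 of the dosed mice carry compound numbers that run on from LY272015. Each library is one labelled mouse, and p-values measure the spread between these libraries.

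Mitochondrial DNA is a small circle transcribed from promoters on both strands into long precursors that hold most genes in a row. tRNAs lie between the rRNAs and messenger RNAs like punctuation, and RNase P and ELAC2 cut them out to release their neighbours. The messenger RNAs encode core subunits of respiratory complexes I, III and IV and of ATP synthase, and every other mitochondrial protein comes from the nucleus. Heart muscle is rich in mitochondria, and a valve sample can hold some.

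The 20990655 to 73128220 counts per library included 2189696 to 13632972 on the 37 genes, so the widest 95% Wilson interval of their share spanned 0.0373 percentage points, for counting error only. AngII 4 was the smallest library. Valve interstitial markers took 0.465 to 1.83% of the counts and cardiomyocyte markers 0.918 to 5.10%, and all markers of both lists were detected in each group. In bulk tissue, fewer cells of a type and less RNA per cell cannot be told apart.

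Sequences of 7 tRNA genes are shown because the results turn on them: mt-Tp (proline), mt-Te (glutamate), mt-Tq (glutamine), mt-Tc (cysteine) and mt-Tn (asparagine) lie on the light strand and were counted, while mt-Tk (lysine) and mt-Ts2 (serine) were at 0 in every library. They were read from the GRCm39 genome 5′ to 3′ on the gene's own strand, and capitals mark bases that another mitochondrial gene also covers.
mt-Tp (chrM:15356-15422, minus strand): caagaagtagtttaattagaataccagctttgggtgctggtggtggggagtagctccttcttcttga
mt-Te (chrM:14071-14139, minus strand): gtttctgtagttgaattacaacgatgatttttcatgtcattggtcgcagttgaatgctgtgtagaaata
mt-Tq (chrM:3772-3842, minus strand): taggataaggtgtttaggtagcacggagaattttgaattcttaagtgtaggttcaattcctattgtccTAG
mt-Tc (chrM:5192-5257, minus strand): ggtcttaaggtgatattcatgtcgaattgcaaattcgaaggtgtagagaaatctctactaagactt
mt-Tn (chrM:5089-5159, minus strand): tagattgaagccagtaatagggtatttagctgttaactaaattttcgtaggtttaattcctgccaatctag
mt-Tk (chrM:7700-7764, plus strand): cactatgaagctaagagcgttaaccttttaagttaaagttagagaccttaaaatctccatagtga
mt-Ts2 (chrM:11613-11671, plus strand): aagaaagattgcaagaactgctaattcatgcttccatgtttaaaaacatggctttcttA
The tRNA genes were 59 to 75 bases long and abut their neighbours closely, so a read longer than a tRNA usually reaches into the next gene. With strand ignored, 19 of the 22 tRNA genes held no stretch of 100 bases that touches that gene alone. mt-Tp, the last gene before the non-coding control region, had 67 such stretches, mt-Tn had 6 and mt-Tc had 1. If reads were counted by strand, 9 of the 22 had none, and mt-Tq had 170 and mt-Te 69. Neither the read length nor the strand setting is given in the sources used here, so counts of tRNAs cannot be told apart from counts of precursors that run through them. For mt-Nd6 and the light-strand tRNAs this includes RNA of the heavy strand over the same positions. Strand below means the annotated strand of the gene.

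A further limit on assignment comes from the nucleus. An alignment of the mitochondrial chromosome to the rest of GRCm39 found a copy of it at chr1:24650616-24655269, 4654 aligned bases at 99.94% identity to mitochondrial positions 6390 to 11042. Counted along the mitochondrial chromosome, it differs by A6393T in mt-Co1, T9461C in mt-Nd3 and 1 inserted base at 9820 in mt-Tr. The copy covers 11 of the 37 genes wholly, namely the 6 protein-coding genes mt-Co2, mt-Atp8, mt-Atp6, mt-Co3, mt-Nd3 and mt-Nd4l and 5 tRNAs, and it covers 31.3% of mt-Co1 and 63.6% of mt-Nd4. No stretch of 100 bases in mt-Co2, mt-Atp8, mt-Atp6, mt-Co3 or mt-Nd4l is free of a perfect match in the nuclear genome, and mt-Nd3 has 3. The end of mt-Atp8, which encodes a small ATP synthase subunit, is shown because it overlaps the start of mt-Atp6 on the same strand, so that 43 bases, in capitals, belong to both genes.
mt-Atp8 end (chrM:7880-7969, plus strand): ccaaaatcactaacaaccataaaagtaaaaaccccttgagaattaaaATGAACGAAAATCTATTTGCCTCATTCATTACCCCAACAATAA

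Levels are given as normalised counts, meaning counts scaled by library size with edgeR's TMM factors to the average library. Between genes they are compared only per kilobase of gene. The library type is not given in the sources used here. Differences in level between genes or classes therefore cannot be told apart from differences in how well each RNA was captured. In Ctrl mice mt-Cytb, the mitochondrial subunit of complex III, stood highest at 635212 ± 160199 normalised counts per kilobase (SD, n = 4). mt-Nd1, a complex I subunit, followed at 485537 ± 177582, and mt-Co1, the catalytic subunit of complex IV, at 411690 ± 109024. The ranges of these neighbours overlapped between mice, although mt-Cytb exceeded mt-Nd1 per kilobase within each Ctrl mouse.
The large rRNA mt-Rnr2 reached 191271 ± 40181 and the small rRNA mt-Rnr1 41804 ± 6358 per kilobase in the same mice. The complex I genes mt-Nd2 (170226), mt-Nd4 (163809), mt-Nd6 (100487) and mt-Nd5 (68471) lay between them. The 5 protein-coding genes outside the chromosome 1 copy thus spanned 68471 to 635212 per kilobase in Ctrl.
The 6 protein-coding genes wholly inside it spanned 912 to 15115, below each of the other 7 protein-coding genes in all 4 groups. mt-Co3 had 3083 to 13267 raw counts per library against 480960 to 3631656 for mt-Co1, although both encode complex IV subunits cut from the same precursor. Genes in the shared stretch are therefore reported as uncertain in level.

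**Figure D1:**
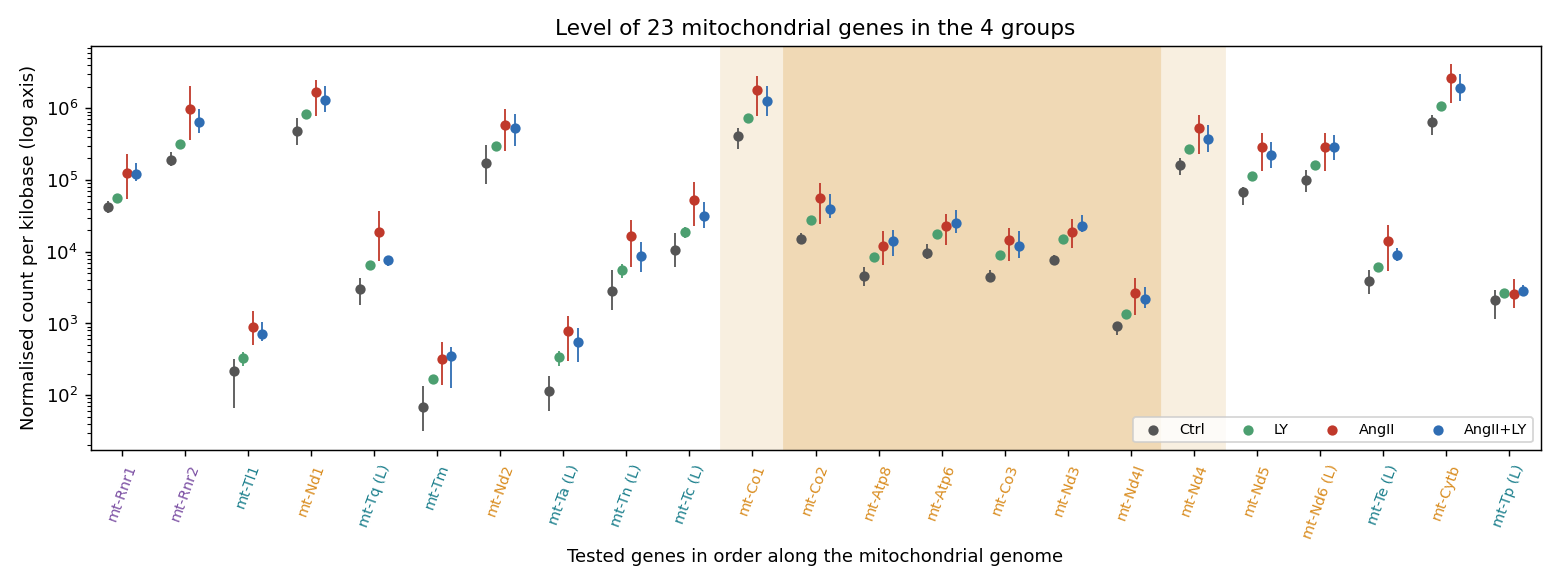
Normalised count per kilobase on a log axis for the 23 tested genes, in order along the mitochondrial genome, where points are group means, vertical lines run from the lowest to the highest mouse and (L) marks light-strand genes. Labels are purple for rRNA, orange for protein-coding and teal for tRNA genes, and darker shading marks genes wholly, lighter shading genes partly, inside the chromosome 1 copy. The 6 wholly copied protein-coding genes sit at 912 to 15115 in Ctrl, against 68471 to 635212 for the 5 outside.

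The nuclear copies were counted as well. Gm28661, the chromosome 1 copy of mt-Co2, had 5496 to 29801 counts per library, 0.531 to 0.720 of the mt-Co2 count of the same library. Atp6-ps stood at 0.591 to 0.996 of mt-Atp6, Gm28438 at 0.575 to 1.08 of mt-Nd3, Gm28437 at 0.381 to 0.538 of mt-Co3 and Gm10222 at 0.247 to 0.426 of mt-Nd4l. Gm29216, which matches the end of mt-Co1, stood at only 0.00258 to 0.00433 of it, and Gm28439 at 0.00188 to 0.00324 of mt-Nd4. Counts of the wholly copied genes and of their nuclear copies cannot be told apart.

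Most tRNAs that passed the minimum lie on the light strand. Of the 8 light-strand tRNA genes 6 passed the minimum mean count, of the 14 heavy-strand ones 2 (mt-Tl1 for leucine and mt-Tm for methionine). Over all libraries mt-Tc had 468 to 5169 raw counts, mt-Te 204 to 1347, mt-Tq 146 to 2213, mt-Tn 127 to 1661 and mt-Tp 50 to 239. Per kilobase, mt-Tc was the highest tRNA in each group by its mean, at 10575 normalised counts in Ctrl, where mt-Te (3891), mt-Tq (3072), mt-Tn (2807) and mt-Tp (2105) followed. mt-Te exceeded mt-Tq in every Ctrl mouse, and the order of these genes differed between groups, with the mean of mt-Tq (18808) above that of mt-Te (14116) in AngII, where the mice overlapped.
mt-Tl1 had 7 to 63 counts, mt-Ta (alanine) 5 to 74 and mt-Tm 2 to 34. Of the 14 tRNAs below the minimum, 12 are on the heavy and 2 on the light strand. The 5 tRNAs wholly inside the chromosome 1 copy (mt-Ts1, mt-Td, mt-Tk, mt-Tg and mt-Tr) are all among them. mt-Tk and mt-Ts2 were at 0 in all 14 libraries, which allows up to 3 counts in each. The other 12 (mt-Tf, mt-Tv, mt-Ti, mt-Tw, mt-Ty, mt-Ts1, mt-Td, mt-Tg, mt-Tr, mt-Th, mt-Tl2 and mt-Tt) had 0 to 10 counts per library, and the highest, 10, was mt-Ty in AngII 4.

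By class, the protein-coding genes took most of the mitochondrial counts in every mouse, 80.2 to 89.7% of them, the rRNAs took 10.3 to 19.7% and the tRNAs 0.0465 to 0.0794%. Of all counts, the protein-coding genes took 3.36, 4.60, 4.92 and 6.64% in the Ctrl mice, 7.60 and 8.63% in LY, 9.70, 8.57, 21.8 and 20.5% in AngII and 17.5, 8.59, 10.2 and 11.0% in AngII+LY, in the order of the replicate numbers. The rRNAs took 0.640, 0.675, 0.564 and 0.877% in Ctrl, 1.02 and 1.13% in LY, 1.34, 1.26, 2.84 and 5.03% in AngII, and 2.71, 1.52, 1.56 and 1.69% in AngII+LY. In all 3 classes the AngII mice lay above every Ctrl mouse, and AngII 3 and AngII 4 lay far above AngII 1 and AngII 2. The tRNA share was 0.00195 to 0.00502% in Ctrl and 0.00620 to 0.0196% in AngII. These shares are sums over the members and were not tested.

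**Figure D2:**
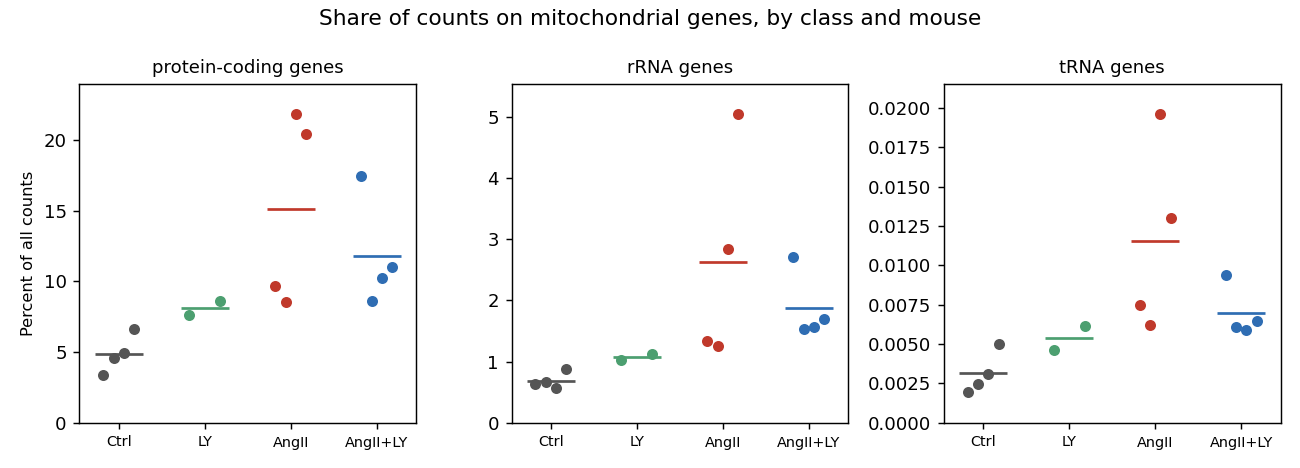
Percent of all counts on mitochondrial protein-coding, rRNA and tRNA genes, where each point is a mouse and each line the mean of the 4 Ctrl, 2 LY, 4 AngII or 4 AngII+LY mice. The rRNA panel shows AngII 4 at 5.03%, and in each panel no AngII point lies as low as a Ctrl point.

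Between AngII and Ctrl mice all 23 tested genes had higher fitted levels in AngII, by a median of 1.86 on the log2 scale, against a median of -0.058 over the 19145 genes tested. The differences ran from 1.25 in mt-Atp6 to 2.74 in mt-Ta, with mt-Tp apart at 0.28. For 18 of the 23 every AngII mouse lay above every Ctrl mouse, where 7.46% of all genes tested did so. At an unadjusted p under 0.05 there were 22 of 23, mt-Tp being the exception, and 13.4% of all genes tested were higher at that p.
None of the 23 was called at the threshold used throughout, an adjusted p under 0.05 in edgeR's quasi-likelihood test and an absolute log2 difference above 0.5, and 0.0% of all genes were. The adjusted p was below 0.06 for 17 of them, and for 566 of the 19145 genes tested. Its lowest value, 0.0573, was also the lowest over all genes, and genes of different unadjusted p share it. DESeq2's Wald test, with the same threshold, called 19 of the 20 to which it gave an adjusted p, mt-Tp again excepted, and 13.8% of all genes. The edgeR count hung on single libraries: 20 members were called without AngII 1, 19 without AngII 2 and 16 without Ctrl 4, where 1726, 360 and 799 of all genes were called.

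The fitted difference was larger for mt-Rnr2 than for mt-Rnr1, and their ratio is tested below. mt-Rnr1 had 37896, 40133, 33591 and 48070 normalised counts in Ctrl and 62057, 51343, 139282 and 220730 in AngII. mt-Rnr2 had 266169, 311282, 244569 and 388343 in Ctrl and 648714, 575761, 1744977 and 3275300 in AngII. Both were higher in all AngII mice, and AngII 4 was the highest. The log2 difference was 1.57 ± 0.39 (SE) for mt-Rnr1 (edgeR adjusted p = 0.0584) and 2.37 ± 0.49 for mt-Rnr2 (edgeR adjusted p = 0.0573). Without AngII 4, the smallest library, the log2 differences were 1.08 and 1.71.

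Of the 13 protein-coding genes, mt-Co1, mt-Cytb and mt-Nd5 had the largest fitted differences. mt-Cytb had 489742, 749374, 730959 and 936653 normalised counts in Ctrl and 1583531, 1377787, 4449804 and 4703275 in AngII. The groups did not overlap, and its log2 difference was 2.06 ± 0.42 (edgeR adjusted p = 0.0573). mt-Co1 had 417290 to 825965 in Ctrl and 1209017 to 4364054 in AngII, with a log2 difference of 2.14 ± 0.44 at the same adjusted p.
The 7 complex I genes ranged from 1.32 in mt-Nd3 to 2.06 in mt-Nd5, with mt-Nd1 at 1.79, mt-Nd2 at 1.78, mt-Nd4 at 1.70, mt-Nd4l at 1.55 and mt-Nd6 at 1.51. mt-Nd6, the one protein-coding gene annotated on the light strand, had 35038, 46828, 55365 and 71380 normalised counts in Ctrl. In AngII it had 87895, 69625, 236401 and 199262, so that AngII 2 lay just below Ctrl 4. The ATP synthase genes were at 1.42 (mt-Atp8) and 1.25 (mt-Atp6), and the complex IV genes mt-Co2 and mt-Co3 at 1.88 and 1.69. The 6 wholly copied genes ran from 1.25 to 1.88 and the 5 outside the copy from 1.51 to 2.06, and whether they differ was not tested.

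The nuclear copies stood higher in AngII too. Of 10 listed copies on chromosomes 1 and 2, 8 were in the table, with a median log2 difference of 1.96. All 8 were higher at an unadjusted p under 0.05, where 13.4% of all genes tested were higher at that p. edgeR called 0 of them and 0.0% of all genes. As stated above, the wholly copied genes and their copies cannot be told apart by these counts. The 7 copies on chromosome 1, which include Atp6-ps and Gm10222 from outside that list, ran from 1.52 to 2.09. Gm28661 was at 1.95 beside 1.88 for mt-Co2, Gm28437 at 1.98 beside 1.69 for mt-Co3 and Atp6-ps at 1.64 beside 1.25 for mt-Atp6, while Gm29216 was at 1.91 beside 2.14 for mt-Co1. Whether copies and counterparts differ was not tested.

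Of the 8 tRNAs tested, 7 had log2 differences from 1.86 to 2.74 and mt-Tp did not. mt-Tq had 126.7, 214.9, 221.5 and 309.3 normalised counts in Ctrl and 755.7, 533.3, 2659 and 1393 in AngII. No mice overlapped, and the log2 difference was 2.61 ± 0.44 (edgeR adjusted p = 0.0573). mt-Te had 177, 241.6, 265.8 and 389.7 in Ctrl and 441.4, 376.7, 1619 and 1459 in AngII, a log2 difference of 1.86 ± 0.44 (edgeR adjusted p = 0.058).
mt-Tp had 78.1, 139.1, 195.6 and 151.4 normalised counts in Ctrl and 111.7, 127.4, 282.4 and 165.4 in AngII. The groups overlapped widely, and AngII 3 alone lay above the Ctrl range. Its log2 difference was 0.28 ± 0.39 (edgeR adjusted p = 0.694), and -0.069 without AngII 3. mt-Tp lies on the same strand as mt-Te, nearer to the light-strand promoter. Whether mt-Tp differs from the other tRNAs was not tested.
mt-Tn, mt-Tc and mt-Ta were at 2.56, 2.30 and 2.74, and the heavy-strand mt-Tl1 and mt-Tm, with SEs of 0.68 and 0.84, at 2.04 and 2.17. Counted by annotated strand, 6 of 7 light-strand and 16 of 16 heavy-strand genes had an unadjusted p under 0.05.

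**Figure D3:**
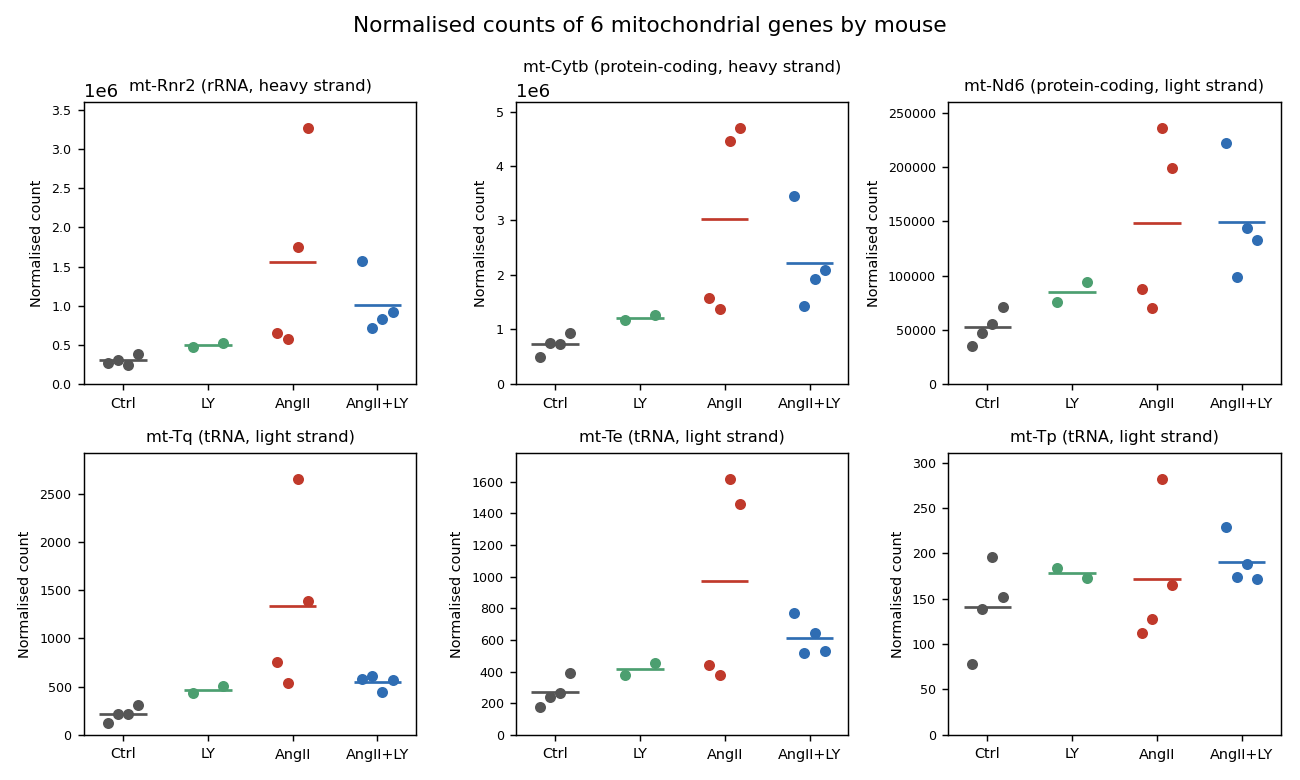
Normalised counts of mt-Rnr2, mt-Cytb, mt-Nd6, mt-Tq, mt-Te and mt-Tp, where each point is a mouse and each line a group mean. AngII 3 and AngII 4 stand above AngII 1 and AngII 2 in all 6 panels, while for mt-Tp the AngII values of 111.7 to 282.4 overlap the Ctrl values of 78.1 to 195.6.

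The 23 tested genes of the mitochondrial genome are poor in G and C, with a median of 36.4% (31.9 to 44.9%). Over all genes tested the median was 49.0%, and 5% of those genes lay below 39.4%. Library differences tied to GC content therefore bear on the 23. A correction for GC content is less well determined at this sparse end. When each library was corrected for GC content by a loess curve, all 23 were still higher in AngII, by a median of 1.09 on the log2 scale, and 18 kept an unadjusted p under 0.05, where 10.9% of all genes tested were higher at that p. The genes that lost it besides mt-Tp, which had not had it, were mt-Atp8 (0.28), mt-Atp6 (0.46), mt-Nd3 (0.33) and mt-Nd6 (0.57). mt-Tq was at 1.84 and mt-Rnr2 at 1.51 after the correction. No member was called, and 0.0% of all genes were.

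Cardiomyocyte markers did not stand higher in AngII: 5 of 14 were higher and 9 lower than in Ctrl, with a median log2 difference of -0.38, and their summed share was 0.918 to 1.77% of counts in AngII against 0.943 to 3.84% in Ctrl. All 9 markers of brown and white fat were lower (median -1.60), from 0.0900 to 0.127% of counts in Ctrl to 0.0420 to 0.0737% in AngII. Valve interstitial markers took 1.15 to 1.71% in AngII and 0.876 to 1.82% in Ctrl. The part of other cell types in the mitochondrial differences was not tested.

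**Figure D4:**
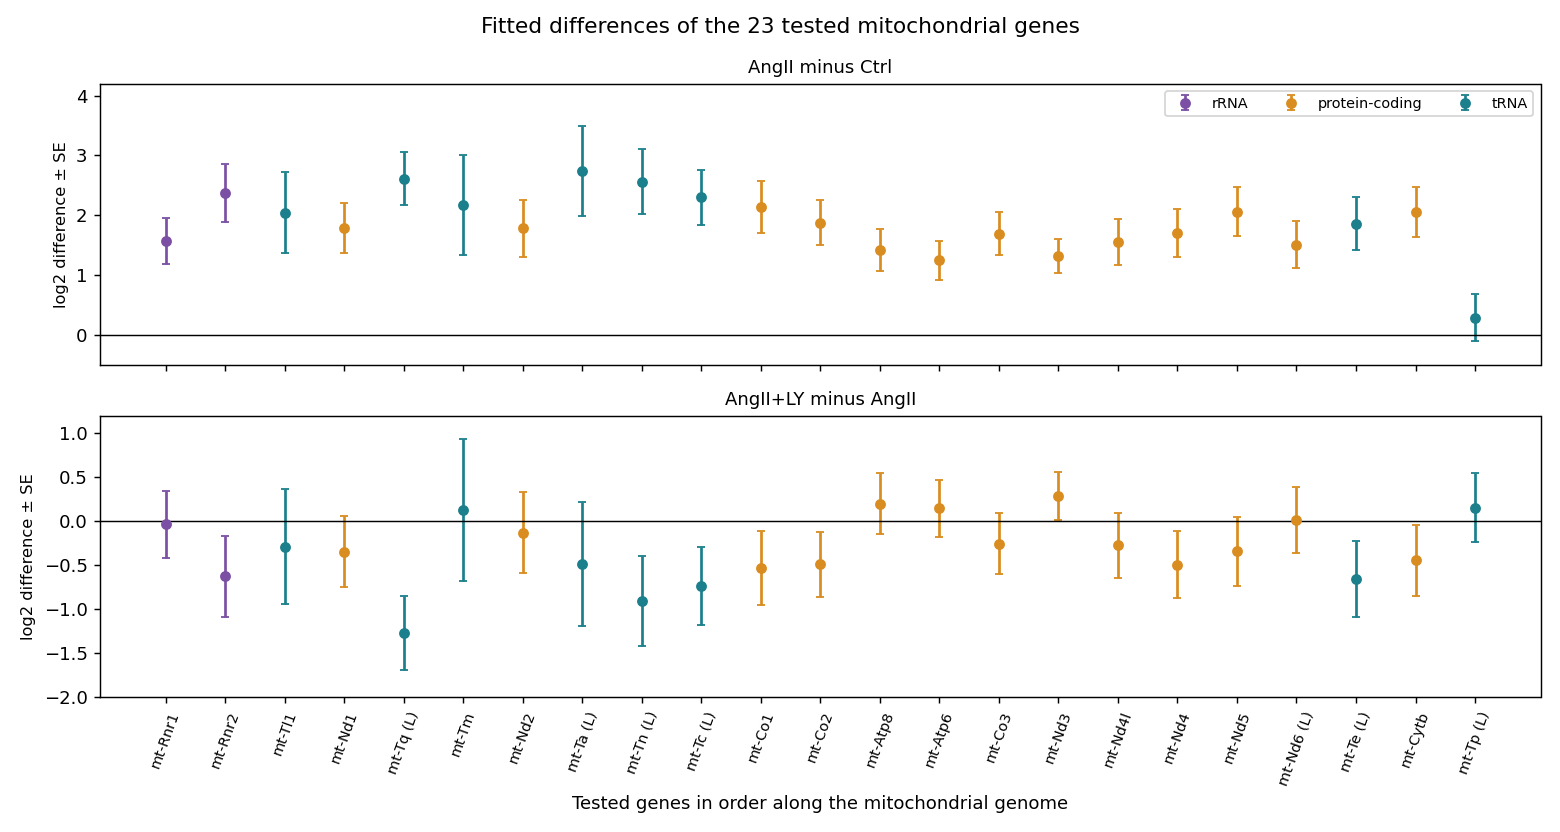
Fitted log2 differences with standard errors for the 23 tested genes in genome order, AngII minus Ctrl above and AngII+LY minus AngII below, with rRNA genes in purple, protein-coding genes in orange and tRNA genes in teal, and (L) marking light-strand genes. In the upper panel 22 genes lie between 1.25 and 2.74 and mt-Tp at 0.28, and in the lower panel the values run from -1.28 in mt-Tq to 0.28 in mt-Nd3.

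Between AngII+LY and AngII mice no mitochondrial gene separated the groups, whereas 11.1% of all genes tested did so in one direction or the other. Fitted levels were lower in AngII+LY for 17 genes and higher for 6, with a median log2 difference of -0.35 and a median of -0.016 over all genes tested. edgeR called 0 of the 23 and 0.0% of all genes, and DESeq2 called mt-Tq, with 10.8% of all genes. mt-Tq was also the one member at an unadjusted p under 0.05 in edgeR, where 12.4% of all genes tested were lower at that p.
mt-Tq had 582.2, 608.4, 443.4 and 569.9 normalised counts in AngII+LY, against 755.7, 533.3, 2659 and 1393 in AngII. The AngII+LY mice lay close together, and 3 of them exceeded AngII 2, the lowest AngII mouse. The log2 difference was -1.28 ± 0.42 (edgeR adjusted p = 0.109). Without AngII 3 it was -0.69 (edgeR adjusted p = 0.281), and no member then had an unadjusted p under 0.05. Without AngII 2 there were 5 such members and without AngII+LY 1 there were 3. Of the 19145 genes tested, 4080 and 4673 were at that p in these fits, and 4029 without AngII 3.
mt-Tn (-0.91 ± 0.52) and mt-Tc (-0.74 ± 0.44) followed, while mt-Rnr2 was at -0.63 ± 0.46, mt-Co1 at -0.53 ± 0.42 and mt-Cytb at -0.45 ± 0.41. mt-Rnr1 (-0.04), mt-Nd6 (0.01), mt-Atp6 (0.14), mt-Atp8 (0.20), mt-Nd3 (0.28), mt-Tp (0.15) and mt-Tm (0.13) were near or above 0.
After the GC correction the direction turned for most genes: 20 of 23 were higher in AngII+LY, by a median of 0.24, and mt-Tq (-0.61), mt-Tn (-0.23) and mt-Tc (-0.14) remained lower. Unadjusted p under 0.05 then fell to mt-Nd3 (0.96), mt-Atp6 (0.76) and mt-Atp8 (0.89), 3 genes of the copied stretch, where 9.09% of all genes tested were higher at that p.
All 14 cardiomyocyte markers were higher in AngII+LY than in AngII, 9 of them at an unadjusted p under 0.05, with a median log2 difference of 1.38, and their share was 2.23 to 5.10% against 0.918 to 1.77% of counts. All 6 valve interstitial markers were lower, 3 of them at that p, with a median log2 difference of -0.78, and their share was 0.465 to 0.867% in AngII+LY against 1.15 to 1.71% in AngII, without overlap. Of all genes tested 10.1% were higher and 12.4% lower at that p. The part of either list in the mitochondrial values was not tested.

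AngII+LY mice stood above Ctrl mice in nearly every member. All 23 were higher, by a median of 1.56, 22 had an unadjusted p under 0.05, and 19 had no overlap between groups, where 4.89% of all genes tested were higher at that p and 3.27% were higher without overlap. edgeR called 0 of them and 0.0% of all genes, with a lowest adjusted p of 0.110 for mt-Nd3. DESeq2 called 17, with 1.79% of all genes. The Ctrl mice are the same as those compared with AngII.
mt-Nd3, a complex I subunit in the copied stretch, had 2279, 2679, 2487 and 3094 normalised counts in Ctrl and 11197, 6482, 7187 and 7070 in AngII+LY, which places all AngII+LY mice well above. Its log2 difference was 1.60 ± 0.28. The rRNAs were at 1.53 (mt-Rnr1) and 1.74 (mt-Rnr2), mt-Cytb at 1.61, mt-Tq at 1.34 and mt-Te at 1.19. mt-Tp, with 229.3, 174, 188.6 and 171.4 normalised counts in AngII+LY, was at 0.44 ± 0.39 (edgeR adjusted p = 0.735).
In this comparison 12 of the 14 cardiomyocyte markers were higher, 8 of them at an unadjusted p under 0.05, with a median log2 difference of 1.11. All 6 valve interstitial markers were lower, 3 of them at that p, with a median of -0.76 and a share of 0.465 to 0.867% against 0.876 to 1.82% of counts in Ctrl. Of all genes tested 4.89% were higher and 6.14% lower at that p, and the part of these lists was not tested. After the GC correction 22 members had an unadjusted p under 0.05 and the median was 1.33, where 9.64% of all genes tested were higher at that p.

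LY alone was represented by 2 mice. All 23 members were higher than in Ctrl, by a median of 0.81, and for 17 both LY mice lay above all Ctrl mice, where 5.64% of all genes tested did so. mt-Tq had 433.5 and 506.6 normalised counts in LY (log2 difference 1.11 ± 0.49) and mt-Co3 6523 and 7525 (0.997 ± 0.41), each above its highest Ctrl mouse, at 309.3 and 4351. mt-Tp, with 183.4 and 172.4, stayed within the Ctrl range.
mt-Tq, mt-Atp8, mt-Atp6, mt-Co3 and mt-Nd3 had an unadjusted p under 0.05, 5 of 23 where 0.627% of all genes tested were higher at that p. Every adjusted p was 1, edgeR called 0.0% of all genes and DESeq2 called no member, with 0.11% of all genes. Leaving out mice lowered the 5 members to 3 without AngII+LY 3, AngII+LY 4 or Ctrl 2, 1 without Ctrl 1, Ctrl 3 or LY 1, and 0 without LY 2. With single mice outside LY left out, 222 to 383 of the 19145 genes tested were at that p in either direction. After the GC correction 1 member had an unadjusted p under 0.05, where 0.721% of all genes tested were higher at that p.

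Whether LY272015 went with a different change in the presence of AngII was tested by the interaction, the difference of AngII+LY minus AngII less that of LY minus Ctrl. It was negative in all 23 genes, with a median of -1.15 on the log2 scale, and 5 had an unadjusted p under 0.05 (mt-Tq, mt-Tn, mt-Tc, mt-Co2 and mt-Co3), where 7.64% of all genes tested were lower at that p. mt-Tq was the farthest, at -2.38 ± 0.65 (edgeR adjusted p = 0.295). DESeq2 called mt-Tq as well, with 1.1% of all genes, and gave 8 members an unadjusted p under 0.05, with 15.8% of all genes. After the GC correction 17 of the 23 were negative, with a median of -0.34, and 1 had an unadjusted p under 0.05, where 4.1% of all genes tested were lower at that p. Leaving out single mice outside LY gave 13 such members without AngII 2 and 11 without AngII 1 or AngII+LY 1. There were 3 without Ctrl 2, 2 without Ctrl 3 or AngII+LY 4, and 1 without AngII 3, AngII 4, AngII+LY 2, AngII+LY 3 or Ctrl 1. In the fits with 13 and 11 members, 2569, 3180 and 3008 of the 19145 genes tested were at that p in either direction, and 1815 without Ctrl 2.

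Ratios of raw counts within a library do not depend on how libraries were scaled. In 4 pairs and 4 comparisons the difference in mean log2 ratio was tested by an exact permutation test, two-sided, in a family of 16. The smallest p was 0.0286 for 4 mice against 4 and 0.0667 for 2 against 4, and 10 of the 16 would have had to reach 0.0286 for any to pass the adjustment at 0.05.
The rRNAs leave the same end of the heavy-strand transcript, mt-Rnr1 first. There were 7.02, 7.76, 7.28 and 8.08 counts of mt-Rnr2 for each count of mt-Rnr1 in Ctrl, 8.81 and 9.78 in LY, 10.4, 11.2, 12.5 and 14.8 in AngII, and 9.45, 7.72, 8.07 and 9.19 in AngII+LY. All AngII mice lay above every mouse of the other groups. The log2 difference was 0.69 between AngII and Ctrl and -0.50 between AngII+LY and AngII, each with exact p = 0.0286 and adjusted p = 0.152. Between AngII+LY and Ctrl it was 0.19 (exact p = 0.143, adjusted p = 0.327).
mt-Nd6 and mt-Nd5 lie end to end on opposite strands. As the strand setting is not given, counts of either gene may include RNA of the other strand. Counts of mt-Nd6 for each count of mt-Nd5 were 0.425, 0.336, 0.424 and 0.485 in Ctrl, 0.371 and 0.435 in LY, 0.330, 0.286, 0.285 and 0.268 in AngII, and 0.358, 0.369, 0.437 and 0.317 in AngII+LY. The AngII mice lay below all Ctrl mice, by a log2 difference of -0.51 (exact p = 0.0286, adjusted p = 0.152), with AngII 1 just under Ctrl 2. AngII+LY exceeded AngII by 0.33 (exact p = 0.0571, adjusted p = 0.178).
mt-Cytb to mt-Nd1, the far against the near end of the heavy-strand transcript, was 1.34 to 1.84 in Ctrl and 1.72 to 1.995 in AngII, a log2 difference of 0.21 with overlap (exact p = 0.0571, adjusted p = 0.178). mt-Rnr2 to mt-Co1, rRNA against messenger RNA, was 0.388 to 0.638 in Ctrl and 0.400 to 0.783 in AngII, a log2 difference of 0.08 (exact p = 0.714, adjusted p = 0.816).

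A pair of tRNA ratios was added after their values were seen and is given without a test. Counts of mt-Tp for each count of mt-Te were 0.441, 0.576, 0.736 and 0.389 in Ctrl, 0.481 and 0.380 in LY, 0.253, 0.338, 0.175 and 0.113 in AngII, and 0.299, 0.336, 0.294 and 0.324 in AngII+LY. The AngII and AngII+LY mice lay below all Ctrl and LY mice. Counts of mt-Tq for each count of mt-Te were 0.716 to 0.890 in Ctrl, 1.14 and 1.12 in LY, and between 0.955 and 1.71 among AngII mice, with AngII+LY at 0.691 to 1.17.

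**Figure D5:**
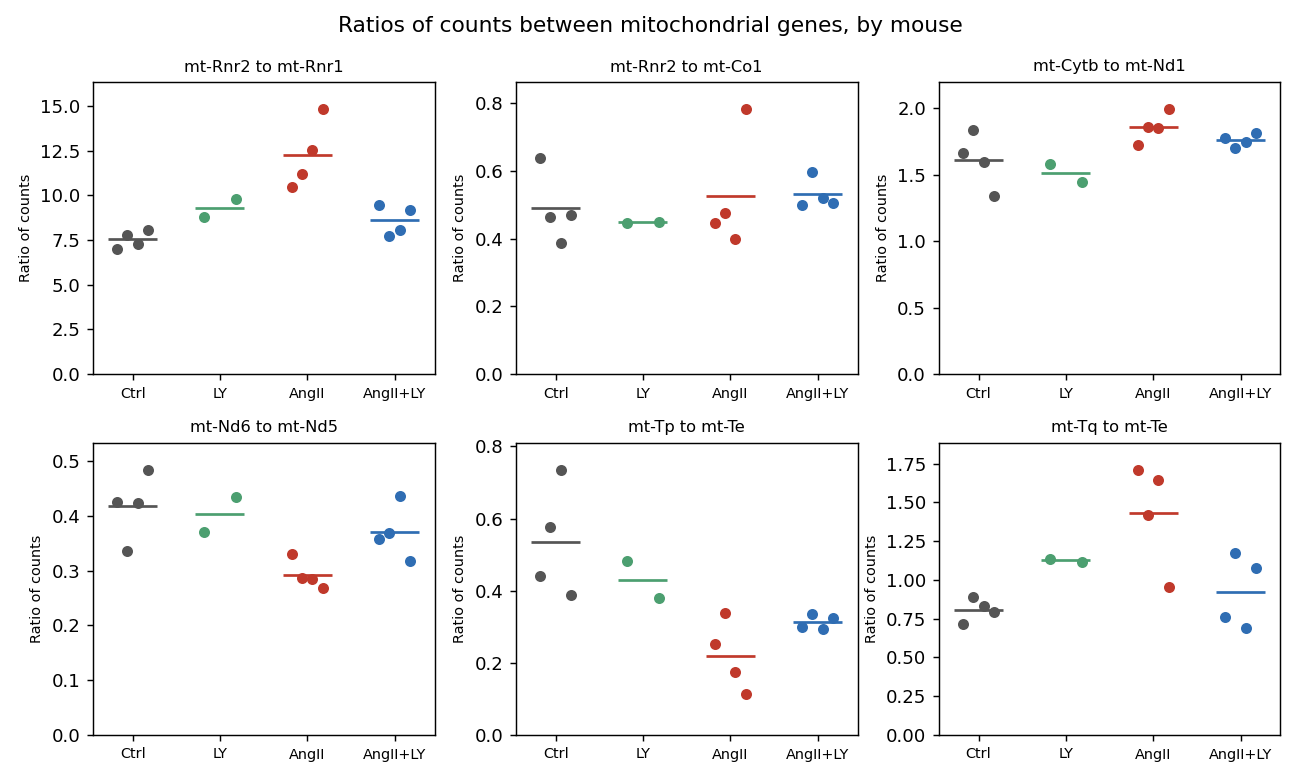
Ratios of raw counts between 6 pairs of mitochondrial genes, where each point is a mouse and each line the arithmetic mean of a group. For mt-Rnr2 to mt-Rnr1 the AngII mice (10.4 to 14.8) lie above the Ctrl mice (7.02 to 8.08), and for mt-Nd6 to mt-Nd5 they (0.268 to 0.330) lie below them (0.336 to 0.485).

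Nuclear genes, most of them for transcribing, processing and degrading mitochondrial RNA, were listed as a group of 40, of which 39 could be tested. The list also holds genes for copying mitochondrial DNA and regulators of nuclear genes, and all are counted together below. Between AngII and Ctrl 24 were higher and 15 lower, with a median log2 difference of 0.15, and 8 were higher and 2 lower at an unadjusted p under 0.05, where 13.4% of all genes tested were higher and 11.7% lower. None was called in any comparison by edgeR.
Trnt1, which adds the CCA end to tRNAs, had 3335 ± 652 normalised counts (SD, n = 4) in AngII and 1771 ± 296 in Ctrl (log2 difference 0.91 ± 0.19, edgeR adjusted p = 0.0573). Trmt10c, a subunit of mitochondrial RNase P, had 1992 ± 462 and 1071 ± 172 (0.89 ± 0.19), and Mtpap, the mitochondrial poly(A) polymerase, 2497 ± 547 and 1482 ± 175 (0.75 ± 0.17). In all 3 the AngII and Ctrl mice did not overlap, where 7.46% of all genes tested were higher without overlap. As these genes were named in order of p, this is no separate evidence. Hsd17b10, another subunit of mitochondrial RNase P and an enzyme of fatty acid breakdown, was lower in AngII, at 3552 ± 481 against 5654 ± 1744 (-0.67 ± 0.23, edgeR adjusted p = 0.102), with overlap.
Between AngII+LY and AngII, 4 of the 39 were higher and 4 lower at an unadjusted p under 0.05, with a median of -0.027, where 10.1% of all genes tested were higher and 12.4% lower, shares near those of the list. Trmt10c (-0.76 ± 0.19) and Mtpap (-0.55 ± 0.17) were lower in AngII+LY without overlap, where 11.1% of all genes tested did not overlap in either direction. Hsd17b10 was higher, at 7218 ± 1493 against 3552 ± 481 normalised counts (1.02 ± 0.23, edgeR adjusted p = 0.0588). Lrpprc, which stabilises mitochondrial messenger RNAs, and Tbrg4, of the FASTK family of mitochondrial RNA-binding proteins, were higher as well, at 0.79 ± 0.21 and 0.85 ± 0.24. The cardiomyocyte markers were higher too in this comparison, as given above.
Between AngII+LY and Ctrl 3 of the 39 were higher and 0 lower at an unadjusted p under 0.05, where 4.89% of all genes tested were higher and 6.14% lower. Between LY and Ctrl none was, where 0.627% were higher and 0.763% lower.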

How the data were processed

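RNA of aortic valve leaflets was sequenced from 14 mice. The authors checked reads with FastQC 0.12.1, trimmed them, aligned them to GRCm39 with HISAT2, counted them with featureCounts and deposited whole-number counts under a name that announces normalized counts; other settings are not given in the sources used here. Genes were matched to GENCODE vM39, and 618 genes with 0.0361% of counts had none. Genes averaging 10 or more counts were fitted in edgeR 4.0.16 (R 4.3.3, quasi-likelihood defaults, TMM, 4 groups in 1 fit, common dispersion 0.353) with Benjamini-Hochberg adjustment over 19145 genes, and the script was tested on simulated data. Ratios used exact permutation tests in SciPy 1.17.1. The nuclear copy was found with BLAST 2.17.0. Alternatives were DESeq2 1.42.0 (the authors' tool), other scalings, no filter, only the compared groups, the replicate number as a block, a loess GC correction (span 0.3), both together, and leaving out each mouse. The rule for naming took all 37 genes, and at most 6 nuclear factors in order of p. The members and lists (nuclear factors, nuclear copies and 8 cell type marker lists) were chosen with earlier results of these data known. The smallest library allows a share of 1.43e-05% at 3 counts.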

Additional observations from a re-analysis of the deposited data

Results flagged for a closer look

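Of 81 groups of 4 mice examined over the 23 tested genes and the ratios, 1 held a mouse far from the others. That is fewer than the about 1 in 20 that chance alone would give, and the groups share mice. mt-Co2 had 43900 normalised counts in AngII+LY 1, against 20042, 22732 and 21120 in the other AngII+LY mice. On the log2 scale the gap to the nearest mouse was 0.839 of the whole range, above the 95% critical value of Dixon's test for 4 values. mt-Co2 lies wholly in the stretch copied on chromosome 1. AngII+LY 1 also had the highest mitochondrial share of its group.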

How the results depend on the processing

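Counts are of the 23 tested genes. In AngII minus Ctrl the called count of 0 (0) was 19 with DESeq2 (2648) and 10 without the filter on low counts (123). It was 14 with edgeR's newer quasi-dispersion (555), an alternative chosen after seeing the data, and 0 to 20 with single mice left out (0 to 1726). In AngII+LY minus AngII, DESeq2 called 1 (2062). The unadjusted count of 1 (4315) was 3 with the GC correction (3074) and 4 with the replicate block and GC correction (2607). It was 0 to 5 with mice left out (3187 to 4868). In AngII+LY minus Ctrl, DESeq2 called 17 (343) and the unfiltered fit 1 (13). In LY minus Ctrl the unadjusted count of 5 (266) was 12 with only the compared groups (668) and 11 with the replicate block (387). It was 1 with the GC correction (283), 3 with both (367), and 1 to 7 with single mice outside LY left out (222 to 383). In the interaction DESeq2 called 1 (210). The unadjusted count of 5 (2545) was 8 with DESeq2 (3034), 9 with the replicate block (2494) and 1 with the GC correction (1697). It was 1 with both (1493), and 1 to 13 with single mice outside LY left out (1815 to 3180). In AngII minus Ctrl and AngII+LY minus Ctrl the unadjusted counts stayed at 21 to 22 with mice left out (3178 to 5663 and 1459 to 2567).

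mt-Tp in AngII minus Ctrl turned to -0.000856 with library totals only, and ran from -0.069 (without AngII 3) to 0.482 with mice left out. In AngII+LY minus AngII, mt-Rnr2 turned to 0.0279 with the GC correction and 0.207 with the replicate block and GC correction, and ran from -0.926 to 0.0264 (without AngII 4) with mice left out, and mt-Cytb to 0.13 with the GC correction and 0.24 with the block added. With mice left out, the log2 ratio of mt-Rnr2 to mt-Co1 ran from -0.13 to 0.21 in AngII minus Ctrl, -0.0568 to 0.266 in AngII+LY minus AngII and -0.212 to 0.0271 in LY minus Ctrl, and mt-Nd6 to mt-Nd5 from -0.158 to 0.0721 in LY minus Ctrl. The cause of these changes was not tested.

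Between same-numbered mice of different groups, r of the deviations ran from -0.146 to 0.106, with 1 of 18 pairs over 0.1. Between mice of different numbers it ran from -0.115 to 0.22, with 5 of 54 pairs over 0.1. Deviations within groups of so few mice balance out by construction, so these values cannot decide whether the numbers pair mice. Without one LY mouse the other is assumed to vary like the other groups. Library totals alone shift the median of all genes in AngII minus Ctrl to -0.285 and the unadjusted split from 2575 higher and 2240 lower to 1313 and 3273. The 14 tRNAs below the minimum count had 0 to 10 counts per library, too few for a test.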

Other observations

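Of the cell types not described above, smooth muscle and macrophage markers were mostly lower in AngII than in Ctrl. Between AngII and Ctrl the median log2 difference was 0.26 for the 5 endothelial and 0.16 for the 3 erythroid markers. It was -3.53 for the 4 smooth muscle markers, all 4 lower at an unadjusted p under 0.05. For the 4 macrophage markers it was -1.47, 3 of them lower at that p, where 11.7% of all genes tested were lower. The summed smooth muscle share ran from 0.0137 to 0.849% of counts in Ctrl, with a median of 0.0622%, and from 0.0132 to 0.0259% in AngII. In LY all 4 smooth muscle markers were lower than in Ctrl at that p too, with a median of -5.09, where 0.763% of all genes tested were lower. Between AngII+LY and AngII the medians of the endothelial, smooth muscle, macrophage and erythroid markers were -0.030, 1.95, 0.46 and 0.53. Of the 4 skeletal muscle markers 2 could be tested, with medians of 0.49 and 1.27, and Myh4 and Myh1 had a median of 0 in every group. edgeR called none of these genes.

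A further nuclear stretch on chromosome 2, 3260 aligned bases at 97.36% identity, matches mitochondrial positions 4441 to 7699. Its genes Gm13339, Gm13340 and Gm13341 had 62 to 980, 156 to 1185 and 54 to 492 counts per library, below the chromosome 1 copies of mt-Co2 and mt-Nd3.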
